A study of Caenorhabditis elegans with 16 samples.

Results

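Transcript levels of 9 *dod* genes and of F55G11.8 were followed across 4 genotypes of *Caenorhabditis elegans*. The 10 genes were taken by name from a table of 46904 gene IDs, namely *dod-3*, *dod-6*, *dod-17*, *dod-19*, *dod-20*, *dod-21*, *dod-22*, *dod-23*, *dod-24* and F55G11.8. Earlier results of these data were known when they were chosen, so counts over the 10 genes are a description. For *dod-17* and F55G11.8 the choice also rested on measured values, since both were lower in *pals-22(jy3)* than in *pals-25(jy111)* mutants. Values of *dod-17* and F55G11.8 are therefore given without a test wherever libraries of either of these genotypes enter, and no gene was tested in the contrast between them.

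RNA was sequenced from whole animals grown on *E. coli* OP50-1 at 20 °C and collected as L4 larvae, with 4 libraries for each genotype. The WT strain, the *pals-25(jy111)* strain and the strain with both *pals-22(jy3)* and *pals-25(jy9)*, called the double mutant, were grown for 44 hours. The *pals-22(jy3)* strain, which develops more slowly, was grown for 48 hours. Growth time and genotype cannot be told apart for the *pals-22(jy3)* libraries. The *jy3* allele changes a splice acceptor of *pals-22*, which encodes a repressor. The *jy9* allele takes away the function of *pals-25*, whose product activates the genes that PALS-22 represses, and the double mutant carries it together with *jy3*. The *jy111* allele is a premature stop codon near the end of *pals-25*, made by CRISPR/Cas9 together with synonymous changes, and it leaves *pals-22* intact. Each sample pooled many animals of 1 strain.

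The name *dod* stands for downstream of DAF-16. DAF-16 is the FOXO transcription factor that is held out of the nucleus while the insulin-like receptor DAF-2 signals through the kinases AGE-1 and AKT-1. In animals with low DAF-2 signaling, one class of *dod* genes is raised through DAF-16, and *dod-3* and *dod-6* belong to it. The genes *dod-17* to *dod-24* carry the names of the other class, which falls when DAF-16 is active. Within that class *dod-17*, *dod-22* and *dod-24* encode secreted proteins with CUB-like domains, as F55G11.8 does, and such genes are known in the intestine for responses to bacterial infection. Part of that response runs through PMK-1, the p38 MAP kinase of the worm.

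In *pals-22(jy3)* mutants the CUB-like genes and *dod-3* stood at 6.09 CPM or less in every library, below all WT libraries, and *dod-23* rose to between 344 and 667 CPM, whereas *dod-6* and *dod-19* overlapped with WT. In the double mutants *dod-17*, *dod-24* and F55G11.8 overlapped with WT and *dod-22* was above it in all libraries, and in *pals-25(jy111)* mutants F55G11.8 was below WT in all libraries while the other CUB-like genes overlapped with it. Only *dod-3* was lower than WT in all 3 mutant genotypes among the genes that passed the test. Where a test applies, these statements rest on the quasi-likelihood test of edgeR, with p-values adjusted by Benjamini-Hochberg over all genes tested, and otherwise on the values of each library. Levels are given as CPM, the reads assigned to a gene scaled to a common library size, with TMM factors for composition.

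Libraries held between 14028579 and 34151410 reads on genes. No replicates were close enough to be the same library deposited again. In all 4 genotypes the library numbered 1 had the highest value of its genotype on the second principal component of all genes. Without the libraries numbered 1, which is a check chosen after the data were seen, the number of genes of the 10 passing the test was 5 for *pals-22(jy3)* against WT, 6 for *pals-22(jy3)* against the double mutant, 1 for the double mutant against WT and 2 for *pals-25(jy111)* against WT, in each case the number found with them. The *pals-22* transcript stood at 4.23 ± 0.71 CPM (SD, n = 4) in WT and 21.2 ± 3.29 CPM in *pals-22(jy3)* mutants, so a splice mutation was not visible as a loss of counts. Of 8 intestinal marker genes, all had counts in every library, and their summed level ranged from 8113 to 11779 CPM in WT, 6850 to 14004 CPM in *pals-22(jy3)*, 11451 to 15261 CPM in the double mutants and 7074 to 12942 CPM in *pals-25(jy111)* mutants. In such whole-animal samples, fewer cells of a type and less RNA per cell cannot be told apart. The summed level of 6 vitellogenin genes, made in the adult intestine, ranged from 1808 to 3564 CPM in *pals-22(jy3)* mutants and from 847 to 1457 CPM in WT without overlap, and its part in the results was not tested. Of these, *vit-2* (log2 fold change 1.77) and *vit-6* (1.41) passed edgeR's test as higher, and *vit-1*, *vit-3*, *vit-4* and *vit-5* did not pass. In the double mutants against WT, *vit-3* (-5.17), *vit-4* (-5.06) and *vit-5* (-4.16) passed as lower, and *vit-1*, *vit-2* and *vit-6* did not pass.

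**Figure D1:**
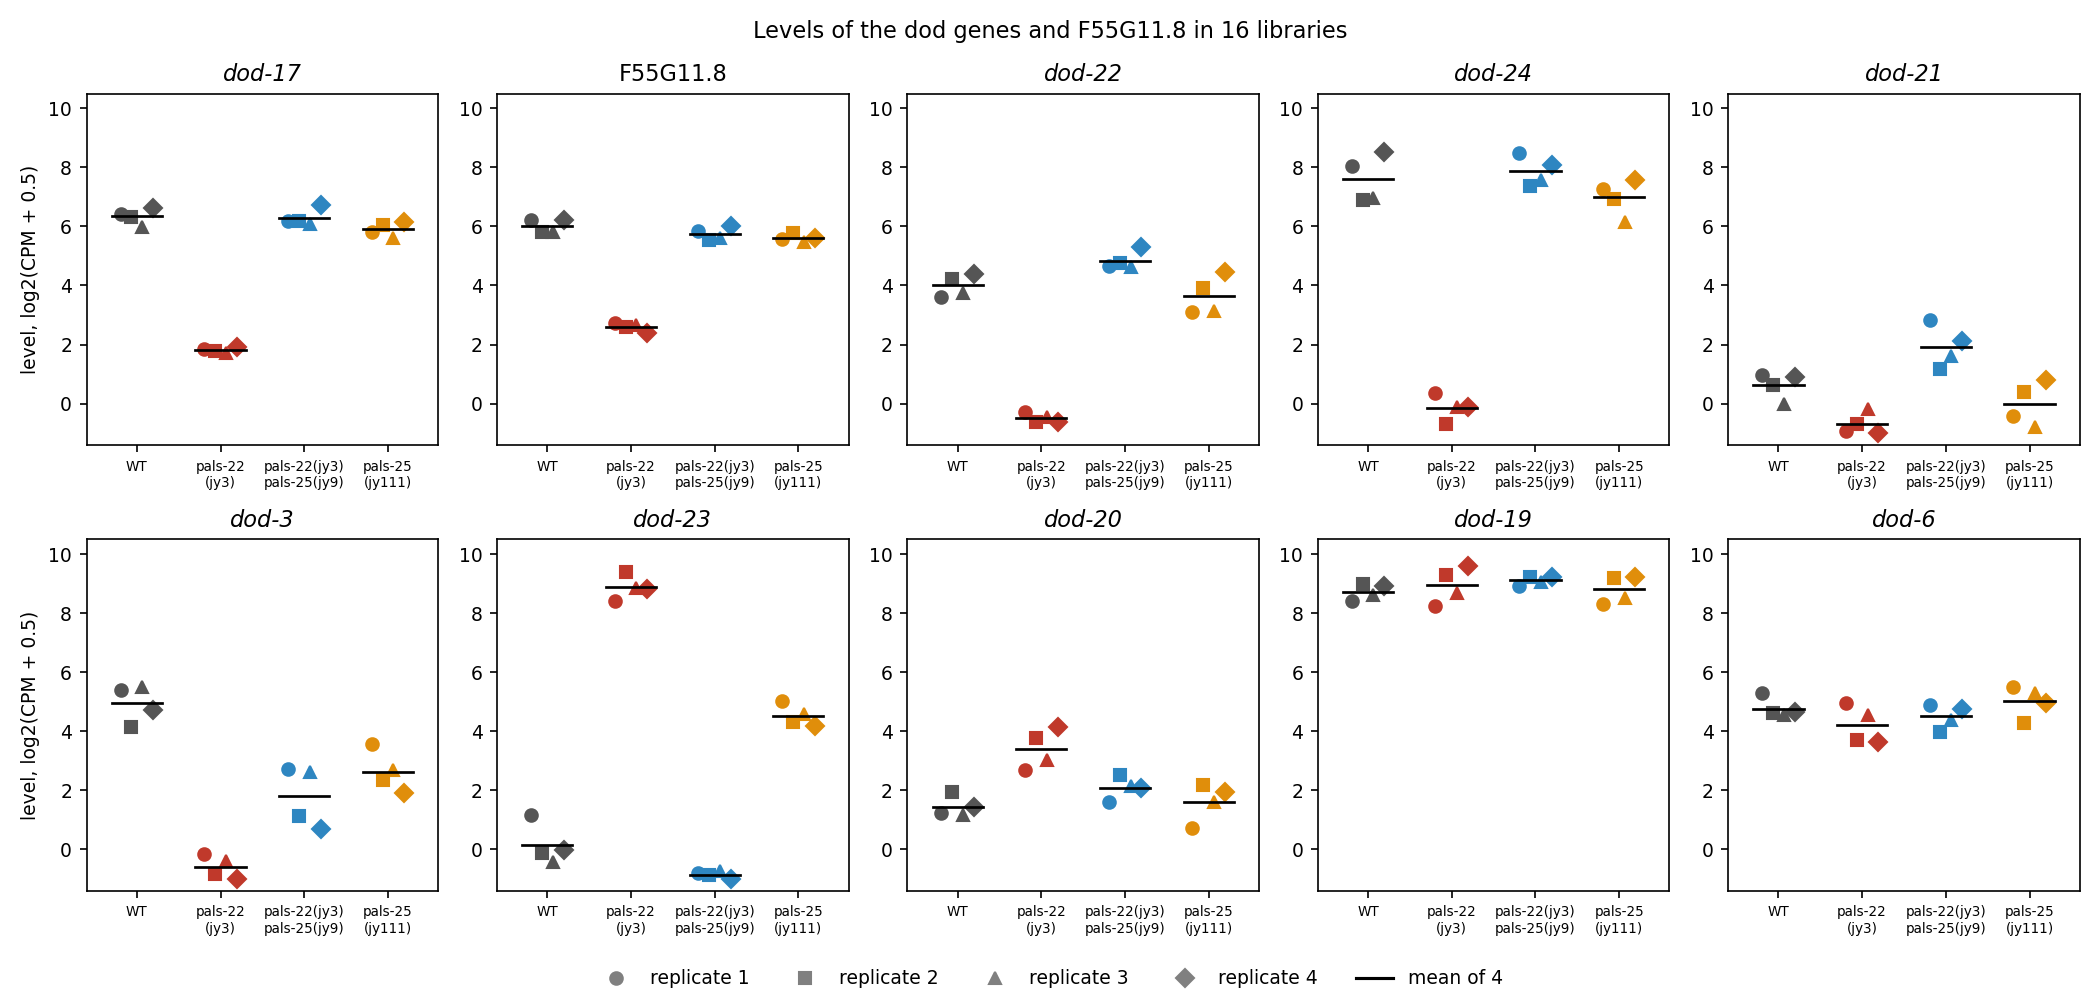
Level of each gene in each library on a log2(CPM + 0.5) scale, by genotype, with 1 symbol per replicate number and a bar for the mean of 4 libraries. The *pals-22(jy3)* libraries sit below all others for *dod-17*, F55G11.8, *dod-22*, *dod-24* and *dod-3* and above all others for *dod-23* and *dod-20*. For *dod-19* and *dod-6* their range overlaps with the others, with some libraries beyond them.

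Of the 10 genes, 5 lie within 41.6 kb of chromosome IV in the WBcel235 assembly. From left to right these are *dod-21* (WBGene00007873, 12936738 to 12937988, forward strand), *dod-24* (WBGene00007875, 12940106 to 12941354, reverse), F55G11.8 (WBGene00010128, 12962808 to 12964645, forward), *dod-22* (WBGene00010125, 12965374 to 12967392, forward) and *dod-17* (WBGene00010745, 12976303 to 12978343, forward). Only 728 bases separate F55G11.8 from *dod-22*, and 8910 bases separate *dod-22* from *dod-17*. The other genes lie apart from this stretch. *dod-3* (WBGene00016052) is on chromosome V from 2730622 to 2731098 on the reverse strand, *dod-6* (WBGene00011869) on chromosome III from 10197716 to 10198352 on the forward strand, and *dod-23* (WBGene00009898) on chromosome II from 8398161 to 8399164 on the reverse strand. *dod-19* (WBGene00022644, 411782 to 414759, reverse) and *dod-20* (WBGene00015259, 422433 to 424177, forward) are on chromosome V with 7673 bases between them. All 10 are annotated as protein-coding, and none overlaps another annotated gene.

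Per kb of annotated exon, *dod-19* had the highest WT level of the 10, with 308 CPM per kb and a range of 244 to 364. *dod-24* followed with 180 CPM per kb and a range of 98.5 to 303, which overlaps those of *dod-19* and, at its lower end, *dod-3*. The levels of *dod-3* (72.8 CPM per kb), *dod-17* (67.3), F55G11.8 (56.4) and *dod-6* (47.3) could not be ordered, because the range of each over the 4 WT libraries overlapped those of the others. *dod-22* stood lower at 13.6 CPM per kb. At the bottom, *dod-20* (1.99 CPM per kb) was above *dod-21* (0.962) in every WT library, and the range of *dod-23* (0.984) overlapped both. In *pals-22(jy3)* mutants the order was headed by *dod-23* with 654 CPM per kb and *dod-19* with 377, whose ranges overlapped.

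Of the CUB-like genes whose values entered the choice, *dod-17* had 85.9, 78.5, 63.0 and 98.9 CPM in WT libraries 1 to 4 and 3.14, 2.91, 2.76 and 3.31 CPM in the *pals-22(jy3)* libraries. It had 73.0, 71.9, 66.7 and 106 CPM in the double mutants and 55.9, 65.7, 48.4 and 70.5 CPM in *pals-25(jy111)* mutants. Every *pals-22(jy3)* library was thus more than 10-fold below every library of the other genotypes. The fitted log2 fold change was -4.84 (SE 0.16) against WT, -4.78 (SE 0.18) against the double mutant and -4.38 (SE 0.15) against *pals-25(jy111)* mutants, all given as a description. Between *pals-25(jy111)* mutants and WT it was -0.45 (SE 0.16), with overlapping libraries.

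F55G11.8 followed the same pattern at a smaller range. It had 73.1, 56.0, 56.0 and 73.1 CPM in WT and 6.09, 5.55, 5.83 and 4.80 CPM in *pals-22(jy3)* mutants. The double mutant libraries held 57.1, 46.0, 48.5 and 63.8 CPM, and those of *pals-25(jy111)* mutants 47.4, 53.95, 43.9 and 48.7 CPM. The *pals-22(jy3)* libraries were again below all others, and the 4 *pals-25(jy111)* libraries were below the 4 WT libraries without overlap. As a description, the log2 fold change of F55G11.8 was -3.62 (SE 0.14) in *pals-22(jy3)* mutants against WT, a 12.3-fold lower level, and -0.42 (SE 0.12) in *pals-25(jy111)* mutants against WT. Against the double mutant the *pals-22(jy3)* value was -3.34 (SE 0.14), and against *pals-25(jy111)* mutants -3.19 (SE 0.12).

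*dod-22* lies next to F55G11.8 and fell further. Its levels were 11.83, 18.17, 13 and 20.58 CPM in WT and 0.33, 0.15, 0.23 and 0.15 CPM in *pals-22(jy3)* mutants, where 4 to 12 reads per library were counted. *dod-22* had 24.9, 26.5, 24.4 and 39.3 CPM in the double mutants and 8.05, 14.6, 8.25 and 21.5 CPM in *pals-25(jy111)* mutants. The double mutant libraries were all above the WT libraries, and the *pals-25(jy111)* libraries overlapped with WT. On the log2 scale *dod-22* in *pals-22(jy3)* mutants changed by -6.25 against WT (SE 0.34, adjusted p = 5.98e-06 by edgeR) and by -7.08 against the double mutant (SE 0.31, adjusted p = 3.33e-06 by edgeR).

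The largest fall among the 10 genes in *pals-22(jy3)* mutants was that of *dod-24*. The WT libraries held 263.3, 119.03, 123.7 and 366 CPM and the *pals-22(jy3)* libraries 0.79, 0.12, 0.42 and 0.42 CPM, from 18356 and 55 reads in all. The double mutant libraries held 361, 166, 189 and 272 CPM and the *pals-25(jy111)* libraries 155, 121, 71.0 and 191 CPM. Replicates of *dod-24* spread widely, and the ranges of WT, double and *pals-25(jy111)* mutants overlapped. The log2 fold change of *dod-24* in *pals-22(jy3)* mutants was -9.005 against WT (SE 0.64, adjusted p = 3.41e-05 by edgeR) and -9.16 against the double mutant (SE 0.54, adjusted p = 1.62e-05 by edgeR). In *pals-25(jy111)* mutants it was -0.71 (SE 0.43, adjusted p = 0.556 by edgeR). With the replicate number as a block, since same-numbered libraries of these genotypes varied together, the value was -0.63 and the adjusted p by edgeR was 0.0459. *dod-24* was lower in 3 of 4 same-numbered pairs.

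*dod-21*, the leftmost gene of the stretch, was expressed at a low level. It had 1.48, 1.04, 0.48 and 1.39 CPM in WT, 0.03, 0.12, 0.38 and 0 CPM in *pals-22(jy3)* mutants, and 6.60, 1.76, 2.53 and 3.87 CPM in the double mutants. A count of 0 in the last *pals-22(jy3)* library allows up to 0.114 CPM, taken as 3 counts and covering counting error only. In *pals-25(jy111)* mutants *dod-21* had 0.25, 0.82, 0.08 and 1.25 CPM, which overlapped with WT. The double mutant libraries were above all WT libraries, and those were above all *pals-22(jy3)* libraries. Too few libraries of WT and *pals-22(jy3)* reached 0.5 CPM for *dod-21* to be tested between them. Without that filter, the log2 fold change was -3.05 with an adjusted p of 0.0303 by edgeR. Against the double mutant, *dod-21* was lower in *pals-22(jy3)* mutants by -4.88 on the log2 scale (SE 0.85, adjusted p = 0.00518 by edgeR).

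*dod-3*, of the class raised through DAF-16, was the gene that fell in every mutant genotype. Its levels were 41.7, 17.4, 45.3 and 26.0 CPM in WT, 0.41, 0.06, 0.27 and 0 CPM in *pals-22(jy3)* mutants, 6.14, 1.72, 5.70 and 1.13 CPM in the double mutants and 11.5, 4.62, 5.95 and 3.22 CPM in *pals-25(jy111)* mutants. The WT libraries were above all others, and the *pals-22(jy3)* libraries below all others. Here too, a count of 0 allows up to 0.114 CPM. The log2 fold change of *dod-3* against WT was -7.45 in *pals-22(jy3)* mutants (SE 0.67, adjusted p = 1.2e-04 by edgeR). In the double mutants it was -3.18 (SE 0.57, adjusted p = 0.0178 by edgeR), and the adjusted p rose to 0.0634 without WT replicate 3 and to 0.0512 without WT replicate 4. In *pals-25(jy111)* mutants it was -2.35 (SE 0.46, adjusted p = 0.0283 by edgeR). This last call was lost on leaving out any 1 of WT replicates 1, 3 and 4 and *pals-25(jy111)* replicates 2, 3 and 4, with log2 fold changes between -2.44 and -2.12 and adjusted p-values between 0.0601 and 0.11. With the replicate number as a block, the log2 fold change in *pals-25(jy111)* mutants was -2.41 and the adjusted p by edgeR was 9.48e-04. Between *pals-22(jy3)* and double mutants *dod-3* differed by -4.29 on the log2 scale (SE 0.93, adjusted p = 0.0131 by edgeR).

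*dod-23* moved the other way. The study counts it among the genes of the intracellular pathogen response (IPR), a set that was defined in part on *pals-22* mutants, so its rise in them is not independent evidence. *dod-23* had 1.76, 0.42, 0.24 and 0.48 CPM in WT and 344, 667, 462 and 455 CPM in *pals-22(jy3)* mutants. It had 32.4, 19.3, 23.7 and 17.5 CPM in *pals-25(jy111)* mutants and 0.08, 0.05, 0.10 and 0 CPM in the double mutants, where 6 reads were counted in all. The 4 genotypes did not overlap in *dod-23*, in the order *pals-22(jy3)*, *pals-25(jy111)*, WT and double mutant. In *pals-22(jy3)* mutants its log2 fold change against WT was 9.46 (SE 0.53, adjusted p = 7.65e-06 by edgeR) and in *pals-25(jy111)* mutants 5.14 (SE 0.55, adjusted p = 0.00122 by edgeR). Its mean level was 482 ± 135 CPM (SD, n = 4) in *pals-22(jy3)* and 23.2 ± 6.64 CPM in *pals-25(jy111)* mutants, a difference that was not tested. *dod-23* had too few reads in WT and double mutants to be tested between them. Without the filter on low counts, the log2 fold change was -3.47 with an adjusted p of 0.0553 by edgeR.

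*dod-20* rose to a smaller extent. It had 1.83, 3.34, 1.77 and 2.21 CPM in WT, 5.93, 13.1, 7.68 and 17.2 CPM in *pals-22(jy3)* mutants, 2.53, 5.20, 3.93 and 3.68 CPM in the double mutants and 1.16, 4.03, 2.53 and 3.38 CPM in *pals-25(jy111)* mutants. All libraries of *pals-22(jy3)* were above the rest, and those of the other genotypes overlapped. *dod-20* rose in *pals-22(jy3)* mutants by 2.14 on the log2 scale against WT (SE 0.37, adjusted p = 0.00445 by edgeR) and by 1.43 against the double mutant (SE 0.36, adjusted p = 0.0259 by edgeR). The adjusted p of the latter rose to between 0.0517 and 0.063 on leaving out *pals-22(jy3)* replicate 2 or any of replicates 1, 3 and 4 of the double mutant, and limma-voom gave 0.0549.

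Without the replicate number as a block, *dod-19* and *dod-6* did not pass edgeR's test in any comparison. *dod-19* ranged from 341 to 509 CPM in WT, from 301 to 772 CPM in *pals-22(jy3)* mutants, from 486 to 603 CPM in the double mutants and from 320 to 604 CPM in *pals-25(jy111)* mutants. Its log2 fold change in *pals-22(jy3)* mutants against WT was 0.19 (SE 0.28, adjusted p = 0.667 by edgeR). *dod-6* ranged from 22.9 to 38.6 CPM in WT, from 12.1 to 30.4 CPM in *pals-22(jy3)* mutants, from 15.3 to 29.3 CPM in the double mutants and from 18.95 to 45.1 CPM in *pals-25(jy111)* mutants. The log2 fold change of *dod-6* in *pals-22(jy3)* mutants against WT was -0.57 (SE 0.34, adjusted p = 0.30 by edgeR). With the replicate number as a block it was -0.66 with an adjusted p by edgeR of 0.0369, and *dod-6* was lower in 3 of 4 same-numbered pairs. In all 4 genotypes the library numbered 1 had the lowest *dod-19* and the highest *dod-6* of its genotype.

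**Figure D2:**
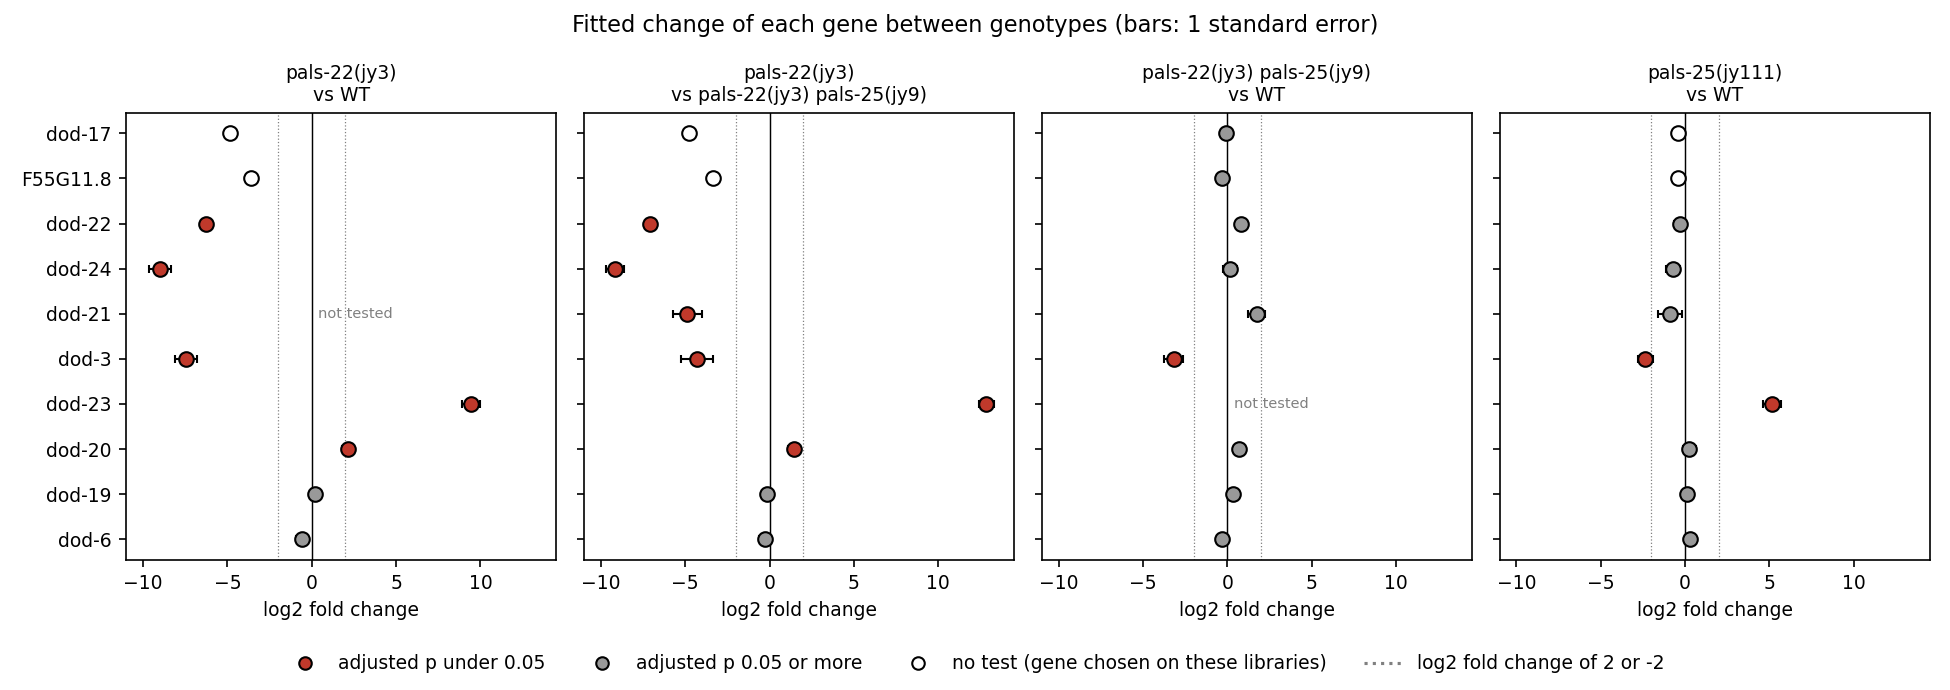
Fitted log2 fold change of each gene in 4 comparisons, with bars of 1 standard error, filled by the outcome of edgeR's test. In both comparisons of *pals-22(jy3)* mutants the CUB-like genes and *dod-3* lie at log2 fold changes below -3, and *dod-23* lies at 9.46 against WT and 12.84 against the double mutant. Of the tested genes, *dod-3* alone is called in the double mutant against WT.

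Counted over the 10 genes, the *pals-22(jy3)* mutants against WT gave 2 genes that passed the test as higher (*dod-20* and *dod-23*) and 3 as lower (*dod-3*, *dod-22* and *dod-24*), of 7 that could be tested. Of all 14803 genes tested in this comparison, 9.97% were called higher and 11.3% lower. *dod-3* and *dod-22* passed the filter on low counts only through their WT libraries, *dod-24* with 1 *pals-22(jy3)* library above 0.5 CPM, and *dod-23* with 1 WT library above it. Libraries did not overlap for 8 of the 10 genes, 2 higher and 6 lower, where 16.6% of all genes tested had all *pals-22(jy3)* libraries above WT and 10.1% had all below. The 6 include *dod-17* and F55G11.8, whose *pals-22(jy3)* values entered the choice, so nothing is read from this count, and 4 are left without them.

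In *pals-22(jy3)* mutants against the double mutants, *pals-22* is mutated in both, and *pals-25* function and growth time (48 and 44 hours) differ together. Their parts in the results cannot be told apart. Of 8 genes tested 6 passed, where 22.4% of 14878 genes were called in either direction. *dod-3*, *dod-21* and *dod-22* passed the filter on low counts only through their double mutant libraries and *dod-23* only through its *pals-22(jy3)* libraries, so the count is no support for a change of the 10 genes as a group. *dod-20* and *dod-23* were the higher ones, and *dod-3*, *dod-21*, *dod-22* and *dod-24* the lower ones. The value for *dod-23* was 12.84 on the log2 scale (SE 0.44, adjusted p = 1.04e-06 by edgeR). *dod-6* (-0.28, adjusted p = 0.578) and *dod-19* (-0.16, adjusted p = 0.674) did not pass edgeR's test. Both comparisons of *pals-22(jy3)* mutants share the same 4 libraries of these mutants. The summed level of 4 neuronal markers ranged from 158.7 to 187.5 CPM in *pals-22(jy3)* and from 147 to 156.5 CPM in double mutants, and that of the vitellogenin genes from 73.3 to 1120 CPM in the double mutants, each without overlap, and their part in these results was not tested.

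In the double mutants against WT, a comparison without libraries of the rule's contrast, 9 of the 10 genes could be tested and 1, *dod-3*, passed as lower, where 6.07% of 14551 genes were called lower and 2.61% higher. *dod-17* differed from WT by -0.07 on the log2 scale (SE 0.19, adjusted p = 0.843 by edgeR) and F55G11.8 by -0.29 (SE 0.15, adjusted p = 0.234 by edgeR). For *dod-21* the value was 1.74 (SE 0.49, adjusted p = 0.0619 by edgeR) and for *dod-22* 0.82 (SE 0.23, adjusted p = 0.0615 by edgeR), each with all double mutant libraries above all WT libraries. DESeq2 gave adjusted p-values of 0.00558 for *dod-21* and 0.00784 for *dod-22*. With the replicate number as a block, adjusted p-values by edgeR were 0.0357 for *dod-21*, 0.0175 for *dod-22*, 0.0435 for *dod-19* and 0.0477 for F55G11.8. Same-numbered libraries of these genotypes correlated at -0.20 to 0.46, and the calls here, as in the other comparisons, come from the fit without the block. Libraries did not overlap for 4 genes, *dod-21* and *dod-22* higher and *dod-3* and *dod-23* lower, where 10.2% and 10.7% of all genes tested did so. Without the block, *dod-19* (0.34, adjusted p = 0.163), *dod-20* (0.70, adjusted p = 0.153), *dod-24* (0.14, adjusted p = 0.859) and *dod-6* (-0.30, adjusted p = 0.479) did not pass edgeR's test. The summed level of 5 epidermal markers was lower in the double mutants (2086 to 4946 CPM) than in WT (5021 to 6748 CPM) and that of 3 body wall muscle markers higher (7635 to 9711 against 6547 to 7164 CPM), both without overlap and with no marker at 0, and their part in the changes of *dod-3*, *dod-21* and *dod-22* was not tested.

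*pals-25(jy111)* mutants against WT gave 1 gene higher, *dod-23*, and 1 lower, *dod-3*, of 8 tested, where 2.33% of 14671 genes were called higher and 1.41% lower. *dod-23* reached 0.5 CPM in 4 *pals-25(jy111)* libraries but in only 1 WT library, so nothing is read from this count. Libraries did not overlap for *dod-23* (higher), *dod-3* and F55G11.8 (lower), where 5.88% and 4.66% of all genes did so. *dod-21* (-0.89, adjusted p = 0.661), *dod-22* (-0.30, adjusted p = 0.786), *dod-6* (0.28, adjusted p = 0.752), *dod-20* (0.25, adjusted p = 0.85) and *dod-19* (0.12, adjusted p = 0.887) did not pass edgeR's test. The same-numbered *pals-25(jy111)* library was below WT for *dod-17*, F55G11.8 and *dod-21* in 4 of 4 pairs and for *dod-22* in 3 of 4.

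The contrast that entered the choice, *pals-22(jy3)* against *pals-25(jy111)* mutants, is given as values alone. Apart from *dod-17* and F55G11.8 the log2 fold changes were -8.29 for *dod-24* (SE 0.55), -5.95 for *dod-22* (SE 0.48), -5.07 for *dod-3* (SE 0.82), -0.83 for *dod-6* (SE 0.38), 0.08 for *dod-19* (SE 0.33), 1.89 for *dod-20* (SE 0.46) and 4.30 for *dod-23* (SE 0.26). *dod-21* had too few reads. So 5 of the 10 genes were lower by more than 2 on the log2 scale, where 0.66% of 14847 genes were, and nothing is read from this share. Libraries did not overlap for 7 of the 10, 2 higher and 5 lower, beside 13.7% and 7.28% of all genes.

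On the chromosome IV stretch, the fall in *pals-22(jy3)* mutants was shared with some neighbours and not with others. The list of neighbours was chosen with earlier results of these data known, so counts over it are a description. Among 33 other gene IDs of the clones C32H11, F55G11 and K10D11, 13 could be tested against WT, and 4 passed as lower and 0 as higher, where 11.3% and 9.97% of all genes tested did, with a median log2 fold change of -0.50 beside -0.09 over all genes. F55G11.2 and F55G11.4 lie between *dod-22* and *dod-17*, and C32H11.3 and C32H11.4 lie to the left of *dod-21*. F55G11.2 went from 36.2 ± 10.8 CPM (SD, n = 4) in WT to 0.565 ± 0.407 CPM in *pals-22(jy3)* mutants, which was -6.09 on the log2 scale (SE 0.49, adjusted p = 7.08e-05 by edgeR). F55G11.4 changed by -4.11 (SE 0.25), C32H11.4 by -4.26 (SE 0.32) and C32H11.3 by -3.08 (SE 0.38) on the log2 scale. In contrast, F55G11.1 (0.01) and C32H11.11 (-0.30), which lie within the stretch, and K10D11.5 (-0.09) to its right did not pass the test. F55G11.1 had 1.53 CPM in WT and 1.64 CPM in *pals-22(jy3)* mutants, and K10D11.5 had 50.8 and 51.0 CPM. Other neighbours had too few reads for this test. Among them, mean CPM in WT and *pals-22(jy3)* mutants was 0.792 and 0.0875 for *irg-6* and 0.603 and 0.0704 for *cld-1*. To the right of *dod-17* it was 0.562 and 0.0190 for K10D11.2 and 0.348 and 0.446 for K10D11.3.

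Against the double mutant, 6 of 16 neighbours tested were lower in *pals-22(jy3)* mutants and 0 higher, where 22.4% of all genes were called in either direction. Besides F55G11.2, F55G11.4, C32H11.3 and C32H11.4, these were *irg-6* (log2 fold change -3.94) and *cld-1* (-4.87), with means of 1.28 and 1.98 CPM in the double mutant. Both passed the filter on low counts only through their double mutant libraries, with means of 0.0875 and 0.0704 CPM in *pals-22(jy3)* mutants. Nothing is therefore read from this count of neighbours. In the double mutants against WT, 2 of 16 neighbours passed as lower, *srlf-5* (-2.74, adjusted p = 0.0285 by edgeR) and *srlf-4* (-1.99, adjusted p = 0.0404 by edgeR). The call for *srlf-5* was lost on leaving out WT replicate 3 or 4 or double mutant replicate 3, and that for *srlf-4* on leaving out any of 7 of the 8 libraries. In *pals-25(jy111)* mutants against WT, 0 of 17 neighbours passed in either direction, and 1 was called lower with the replicate block.

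**Figure D3:**
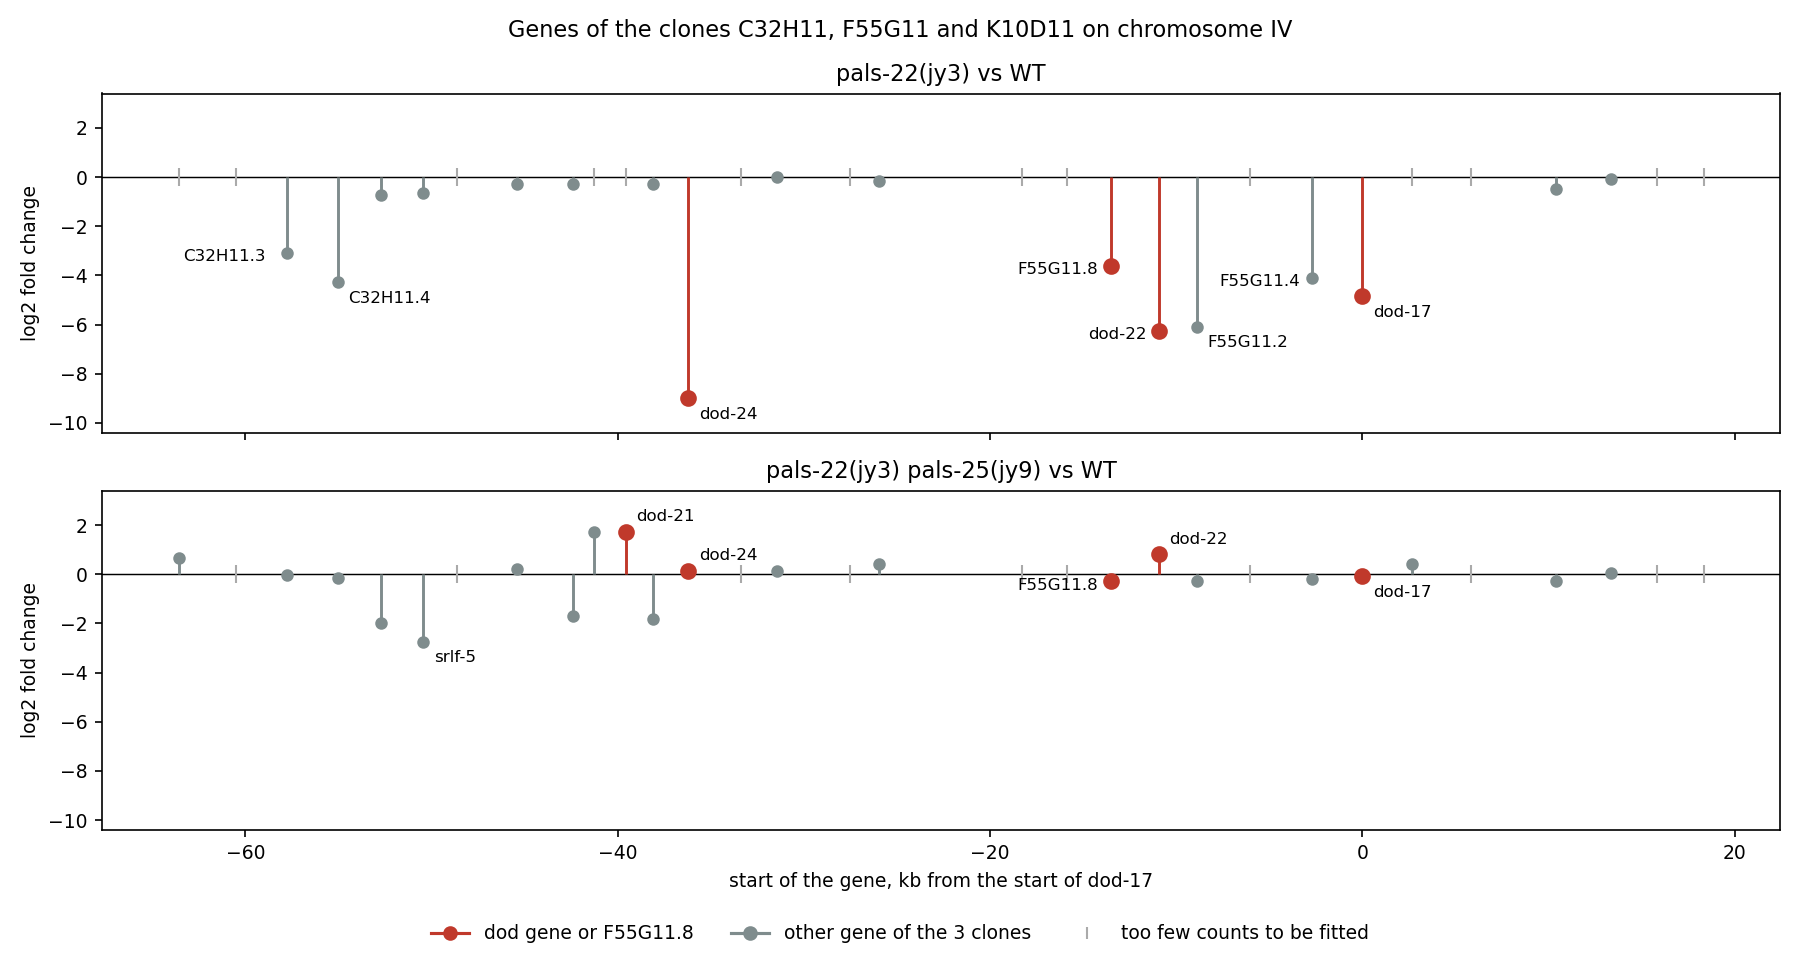
Log2 fold change of the genes of the clones C32H11, F55G11 and K10D11 by the distance of their start from that of *dod-17* in kb, for *pals-22(jy3)* mutants (top) and double mutants (bottom) against WT, with grey ticks for genes with too few reads. *dod-24*, F55G11.8, *dod-22* and *dod-17* and 4 neighbours lie below -3 in *pals-22(jy3)* mutants, with genes near 0 among them, and none of these lies below -1 in the double mutants.

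Genes with the pattern most like that of *dod-17* and F55G11.8 were looked up among 15305 genes, by Pearson r of log2(CPM + 0.5) over the 16 libraries. This is a description, since the libraries fall into genotypes that drive r. For *dod-17* the 5 closest were F55G11.8 (r = 0.995), *asp-14* (0.993), *clec-3* (0.993), *dod-24* (0.992) and F55G11.2 (0.987), and *dod-22* ranked 7 with 0.979. For F55G11.8 they were *dod-17* (0.995), F55G11.2 (0.993), *asp-14* (0.991), F55G11.4 (0.990) and *dod-24* (0.990). *asp-14*, named as an aspartyl protease gene, had 1070 CPM in WT, 27.1 CPM in *pals-22(jy3)* mutants, 1031 CPM in the double mutants and 847 CPM in *pals-25(jy111)* mutants. *clec-3*, a C-type lectin gene, had 22.2, 0.376, 20.9 and 15.1 CPM in these genotypes. Of the 5 closest genes to each, *asp-14* and *clec-3* lie outside chromosome IV. The remaining *dod* genes were less alike, with r to *dod-17* of 0.76 for *dod-3*, 0.67 for *dod-21*, 0.42 for *dod-6*, -0.02 for *dod-19*, -0.79 for *dod-20* and -0.88 for *dod-23*.

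Replicates of 1 genotype also varied together for some of the genes. After the genotype means were subtracted on the log2(CPM + 0.5) scale, r over the 16 libraries was 0.91 between *dod-19* and *dod-20*, which lie 7673 bases apart. Between *dod-6* and these, r was -0.85 and -0.86. It was 0.73 between *dod-17* and *dod-22* and 0.68 between *dod-17* and F55G11.8. These values share libraries and depth, and the libraries numbered 1 weigh in them, so they are given as a description.

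The wider pathways were described with lists of genes. These lists were chosen with earlier results of these data known, so counts over them are a description. Insulin signaling was represented by 13 genes, of which *hsf-1*, the heat shock factor, rose in *pals-22(jy3)* mutants (0.35 on the log2 scale, adjusted p = 0.00976 by edgeR) against WT, and *akt-1* fell (-0.59, adjusted p = 0.00464 by edgeR), with a median of 0.07. With the replicate block, 2 were higher and 2 lower. *daf-16* itself had 161 ± 10.1 CPM (SD, n = 4) in WT and 193 ± 24.2 CPM in *pals-22(jy3)* mutants (log2 fold change 0.17, adjusted p = 0.255 by edgeR), 165 ± 12.03 CPM in the double mutants and 163 ± 25.6 CPM in *pals-25(jy111)* mutants. *pqm-1*, a zinc finger factor that acts opposite to DAF-16, was lower in *pals-25(jy111)* mutants than in WT (-0.71, adjusted p = 0.0409 by edgeR), a call lost on leaving out any WT replicate or *pals-25(jy111)* replicate 1 or 3, and 1 further gene was lower with the replicate block. *akt-1* alone was lower than WT in the double mutants (-0.57, adjusted p = 0.00976 by edgeR, 0.0509 without WT replicate 3). Between *pals-22(jy3)* and double mutants *pqm-1* alone was higher (0.45, adjusted p = 0.0198 by edgeR), which was lost without double mutant replicate 2 or 3.

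Of 9 genes known to be raised through DAF-16, 6 could be tested. In *pals-22(jy3)* mutants against WT, 1 was lower, *icl-1*, the glyoxylate cycle enzyme (-0.64, adjusted p = 0.0255 by edgeR, lost without any 1 of 5 libraries), 0 were higher and the median was -0.28, and the replicate block gave 2 lower. *icl-1* (-1.31) and *nnt-1* (-1.32) were lower in the double mutants with adjusted p-values by edgeR of 0.00399 and 0.00441. *lys-7*, a lysozyme gene, was higher in *pals-25(jy111)* mutants (1.99, adjusted p = 0.00242 by edgeR), and the replicate block gave 2 higher. *icl-1* was lower there (-1.14, adjusted p = 0.0247 by edgeR, lost without any 1 of 5 libraries). Between *pals-22(jy3)* and double mutants 3 of the 6 were higher and 0 lower, namely *nnt-1* (1.01, adjusted p = 0.0059 by edgeR), *icl-1* (0.66, adjusted p = 0.0222 by edgeR, lost without double mutant replicate 2) and *sod-3*, a superoxide dismutase gene (0.73, adjusted p = 0.0386 by edgeR, lost without any 1 of 5 libraries), while *dod-3* was lower in this comparison.

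The p38 pathway was represented by 7 genes. In *pals-22(jy3)* mutants *pmk-1* had 35.0 ± 5.66 CPM (SD, n = 4) and in WT 32.1 ± 4.10 CPM (log2 fold change 0.02, adjusted p = 0.917 by edgeR). *elt-2*, the intestinal GATA factor (0.88, adjusted p = 0.0223 by edgeR), and *vhp-1*, a phosphatase that acts on MAP kinases (0.43, adjusted p = 0.0166 by edgeR), were higher, each call lost without WT replicate 3. *sek-1*, the kinase upstream of PMK-1, was lower (-0.40, adjusted p = 5.4e-04 by edgeR), and the replicate block gave 2 lower. In the double mutants against WT *sek-1* alone was called, as lower (-0.36, adjusted p = 0.0316 by edgeR), a call lost without any 1 of 6 libraries. Between *pals-22(jy3)* and double mutants *elt-2* (1.29, adjusted p = 0.00186 by edgeR) and *vhp-1* (0.49, adjusted p = 0.00361 by edgeR) were higher, *nsy-1*, the kinase upstream of SEK-1, was lower (-0.37, adjusted p = 0.0207 by edgeR, lost without any 1 of 5 libraries), and *sek-1* did not pass the test (-0.05, adjusted p = 0.661 by edgeR). Of the 7 genes, 0 were called in *pals-25(jy111)* mutants, and 1 was higher with the replicate block.

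Most of the known p38-dependent defence genes that could be tested fell in *pals-22(jy3)* mutants, as the CUB-like genes did. The list was not checked for genes with CUB-like domains, so the sets may share a gene family. It was chosen with earlier results of these data known, so its counts are no independent support. Of 10 genes named, 9 were found in the table and 8 could be tested between *pals-22(jy3)* mutants and WT, of which 7 were lower and 0 higher, where 11.3% and 9.97% of all genes were, with a median log2 fold change of -2.67. The tested gene that did not pass was *cld-9* (0.05, adjusted p = 0.872 by edgeR). *irg-4* went from 224 ± 59.4 CPM (SD, n = 4) in WT to 1.98 ± 1.43 CPM (log2 fold change -6.89, adjusted p = 9.19e-05 by edgeR). *irg-5* went from 253 ± 92.5 CPM to 8.47 ± 5.25 CPM (-4.99, adjusted p = 2.72e-04 by edgeR). *sysm-1*, at 2.50 ± 1.32 CPM in WT, had a log2 fold change of -6.96 (adjusted p = 4.39e-04 by edgeR), and its mean in *pals-22(jy3)* mutants was 0.0137 CPM. It passed the filter on low counts only through its WT libraries, so its call is no support for the count. Against the double mutant 8 of 9 were lower and 0 higher, with a median of -3.31, where 22.4% of all genes were called in either direction. There *sysm-1* and *irg-6* passed the filter on low counts only through their double mutant libraries, so their calls are no support for the count. In the double mutants against WT and in *pals-25(jy111)* mutants against WT, 0 of 9 passed the test in either direction, with medians of 0.55 and -0.10, while the replicate block called 1 of them higher in *pals-25(jy111)* mutants. *irg-6* is both on this list and among the chromosome IV neighbours.

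**Figure D4:**
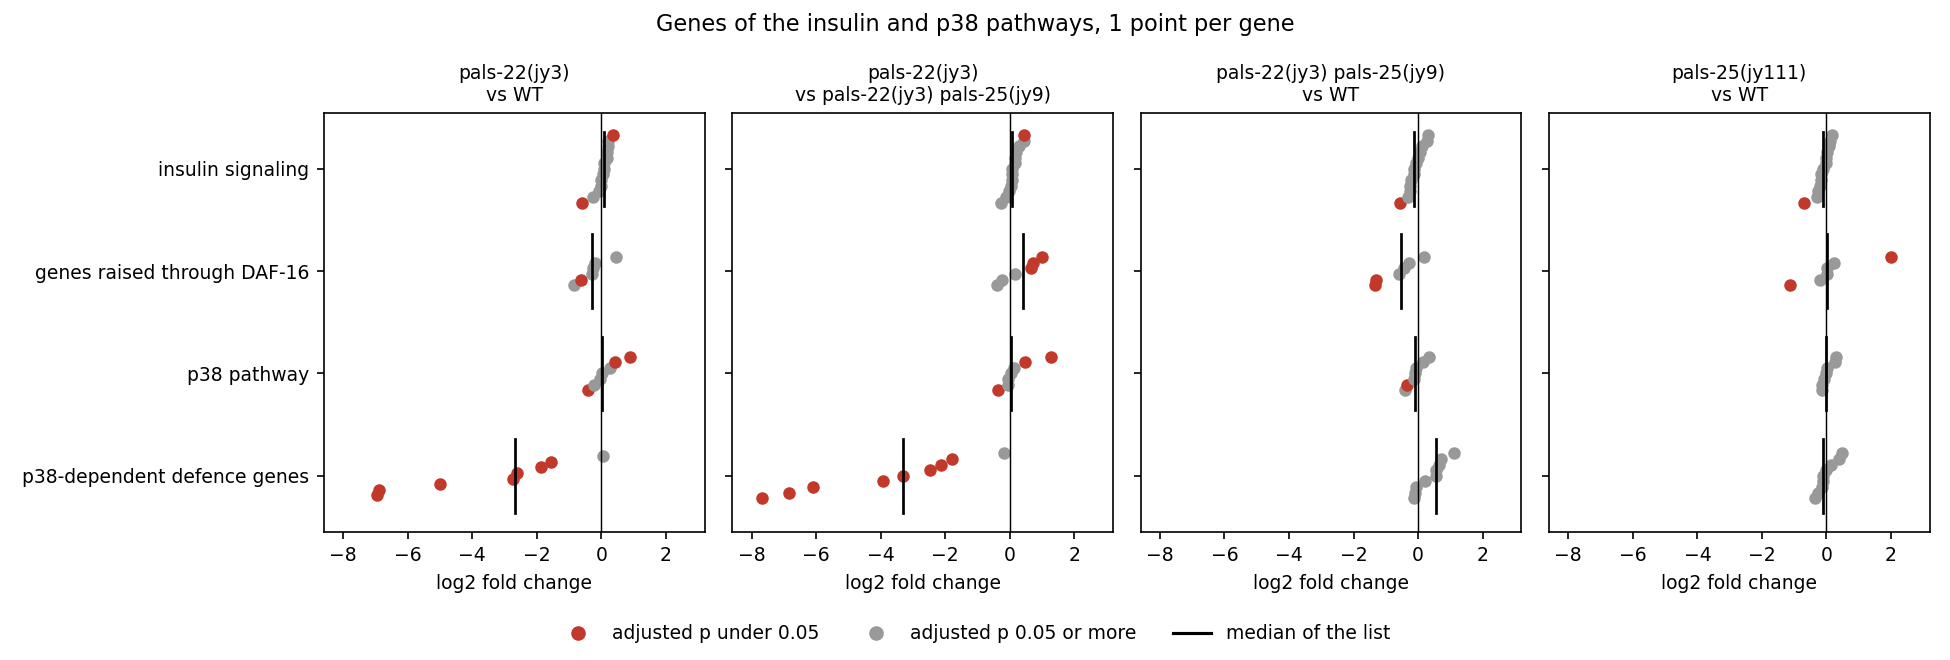
Log2 fold change of each tested gene of 4 lists in 4 comparisons, with red points at adjusted p under 0.05 and a bar at the median of each list. The p38-dependent defence genes have medians of -2.67 and -3.31 in the comparisons of *pals-22(jy3)* mutants, while the medians of the other lists stay between -0.52 and 0.42 in all 4 comparisons.

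Markers of the intestine moved in both directions where the CUB-like genes fell. In *pals-22(jy3)* mutants against WT, *elt-2* (0.88), *ifb-2* (0.90) and *cpr-1* (1.49) of the 8 intestinal marker genes were higher, *ges-1* was lower (-0.87), and *vha-6*, *act-5*, *pept-1* and *asp-1* did not pass edgeR's test. In *pals-25(jy111)* mutants against WT, *cpr-1* alone was called, as higher (0.84, adjusted p = 0.0407 by edgeR), and in the double mutants 0 of the 8.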

How the data were processed

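The authors aligned paired-end reads of stranded mRNA libraries to the WS235 genome with Rsubread, counted reads per gene with featureCounts and deposited these counts without normalization, as 1 combined table and as 16 single files with the same counts. Not given in the sources used here are the versions, the strand setting of the counting and how multi-mapping reads were handled. The combined table was used, and 0 of its columns belonged to no sample. Gene symbols were known for 44017 of 46904 IDs, and positions come from the Ensembl annotation of WBcel235, the assembly of WS235.

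Each comparison fitted its own 8 libraries in R 4.3.3 with edgeR 4.0.16 (TMM, quasi-likelihood test, genes reaching 0.5 CPM, by library total, in 4 or more libraries), and a gene was called at an adjusted p under 0.05. The study itself used limma-voom with the same CPM filter and, besides, a log2 threshold of 2. A standard error is the absolute log2 fold change divided by the square root of F. The fit was tested on simulated data. Alternatives were DESeq2 1.42.0, limma-voom (limma 3.58.1), no filter, filterByExpr, library totals without TMM, 1 fit over 16 libraries, a prior count of 2, the replicate number as a block and leaving out each library in turn.

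The labels number biological replicates 1 to 4 in each genotype, without saying whether a number marks a shared day or culture, and p-values measure only the spread between these samples. Deviations of same-numbered libraries from their genotype means correlated at 0.15 to 0.86 for *pals-25(jy111)* with WT and at 0.18 to 0.84 for *pals-22(jy3)* with WT. Calls in every comparison nevertheless come from the fit without the replicate number as a block, unless the block is named. In these comparisons the blocked value stands beside each result whose call it changes.

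The genes and the lists were chosen with earlier results of these data known. The text names all 10 genes, *pals-22*, up to 3 called genes per list and comparison with the largest change, *daf-16*, *pqm-1* and *pmk-1*, the 5 genes closest in pattern, neighbours on chromosome IV and cell type markers. Lists were insulin signaling, genes raised through DAF-16, the p38 pathway, p38-dependent defence genes and genomic neighbours. Epidermal, muscle, neuronal, oocyte and sperm markers had counts in all genotypes, and sums of these lists that did not overlap between compared genotypes are given beside the results. DNA and protein sequences were not analysed here, so the planned search for promoter motifs was not run.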

Additional observations from a re-analysis of the deposited data

Results flagged for a closer look

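In 4 of the 40 sets of 4 libraries formed by 10 genes and 4 genotypes, 1 library lay far from the rest of its genotype, where chance alone gives about 1 in 20 sets. *dod-6* stood at 38.6 CPM in WT replicate 1 against 22.9 to 24.5 CPM in the others. *dod-23* stood at 1.76 CPM in WT replicate 1, from 25 reads, against 0.24 to 0.48 CPM. *dod-17* stood at 106 CPM in replicate 4 of the double mutant against 66.7 to 73.0 CPM, and *dod-22* at 39.3 CPM in the same library against 24.4 to 26.5 CPM.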

How the results depend on the processing

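The number of the 10 genes passing the test stayed within 1.5 times its value under every alternative run for *pals-22(jy3)* mutants against WT (5 genes, 5 without any single library and 6 with the replicate block) and against the double mutant (6 genes, 5 to 6 without single libraries). For *pals-25(jy111)* mutants against WT it was 2, with 1 to 2 on leaving out single libraries and 3 with the replicate block. For the double mutant against WT it was 1, with 0 to 1 on leaving out single libraries, 3 by DESeq2 and 5 with the replicate block, where *dod-19*, *dod-21*, *dod-22* and F55G11.8 passed besides *dod-3*. In this comparison same-numbered libraries correlated at -0.20 to 0.46, and between *pals-22(jy3)* and double mutants at 0.05 to 0.47. Not every pair varied together, with the lowest values in the libraries numbered 4. Calls there, as in all comparisons, come from the fit without the block. Still, 3 of 4 double mutant libraries correlated best with the WT library of their own number. Whether 1 or 5 genes were called in the double mutant against WT thus depended on whether the block was used. The cause of these moves was not tested. Apart from the values beside the results, the block changed no call of the 10 genes.

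Directions turned only for genes that were not called. *dod-19* in *pals-25(jy111)* mutants against WT ranged from -0.017 to 0.25 on leaving out single libraries, *dod-17* in the double mutant against WT from -0.26 to 0.025, and *dod-24* there from -0.094 to 0.51. *dod-19* in *pals-22(jy3)* against double mutants ranged from -0.31 to 0.11, and was 0.054 without the libraries numbered 1, a setting added after seeing the data. Over single genes of the 10 and settings, 764 values kept direction and side of the threshold, 13 lost and 8 gained the call.

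Scaling by library totals in place of TMM moved the split over all genes from 1476 higher and 1675 lower to 2994 and 959 for *pals-22(jy3)* against WT, from 1678 and 1657 to 2542 and 1004 against the double mutant, and from 380 and 883 to 549 and 654 for the double mutant against WT, with the median log2 fold change in the first moving from -0.09 to 0.09. A single fit over 16 libraries gave 2040 and 1337 in the first. Depth limits *dod-21*, *dod-22*, *dod-24* and *dod-3* in *pals-22(jy3)* mutants and *dod-23* in the double mutants, where libraries held 0 to 29 reads, so the size of these fitted changes is uncertain.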
